A study of Mus musculus with 6 samples.

Results

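Sox genes encode transcription factors, and 10 of them are described here: Sox4, Sox5, Sox6, Sox7, Sox9, Sox11, Sox12, Sox13, Sox17 and Sox18. They were taken by gene name from a table of 23873 genes, of which 19503 had values, and each of the 10 names matched 1 row with values. RNA came from whole kidneys of mice 8 weeks old, in 2 groups of 3 libraries. NICD2_Pax8 stands for the genotype R26NICD2/+pax8cre, an allele at the Rosa26 locus encoding the intracellular domain of Notch2 together with a Cre driven by Pax8, a gene active along the renal tubule epithelium. WT is the group labelled wild type. WT titles also begin with NICD, which leaves unsettled whether WT mice had the allele but no driver, and the driver in the series title is Pax-rtTA and not Pax8-Cre. Strain and sex are not known from the labels. Nor do the labels say whether each library is a different mouse: the p-values therefore speak of the spread among these libraries, possibly a technical one.

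Sox proteins bind DNA through an HMG box, a domain that enters the minor groove and bends the helix, and are grouped by the likeness of that box. Group C (Sox4, Sox11, Sox12) is active in embryonic progenitor cells, including those of the developing kidney. Group D (Sox5, Sox6, Sox13) has no activation domain of its own and works with partners. Sox9, of group E, directs cartilage and testis formation, marks the tips of the branching ureteric bud, and is switched on in tubule cells that regenerate after injury. Group F (Sox7, Sox17, Sox18) acts mainly in endothelium, in arterial and lymphatic vessels.

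Values are FPKM, fragments scaled to transcript length and library total, and are listed by replicate from 1 to 3. Fold changes are given on the scale of log2(FPKM + 1), NICD2_Pax8 over WT, and a gene is called at an adjusted p under 0.05 from limma over the 13500 genes with at least 1 FPKM in at least 3 libraries. The row named NOTCH2 in capitals, whose origin no source gives, stood at 500.49, 520.98 and 570.42 FPKM in NICD2_Pax8 against 2.13, 3.75 and 1.27 FPKM in WT, so its high libraries are those labelled NICD2_Pax8. Across all tested genes 61.4% were called, 45.1% higher and 16.2% lower, around a median log2 fold change of 0.32. Median-of-ratios scaling moved that median to 0.02, with 54.4% called, 28.7% higher and 25.7% lower. WT replicate 1 stood apart: 8 adrenal genes summed to 3710 FPKM there, against 1.47 to 1.72 FPKM in the NICD2_Pax8 libraries and 1.77 and 1.46 FPKM in the other WT libraries. Its 7 fat genes summed to 2770 FPKM, against 49.5 to 221 FPKM in NICD2_Pax8 and 647 and 132 FPKM in WT replicates 2 and 3.

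Of the 10 Sox genes 8 passed the filter, and of these 2 were higher (Sox4 and Sox9), 3 were lower (Sox6, Sox17 and Sox18) and 3 were not called (Sox7, Sox12 and Sox13). Calls among the 8 are to be read against the 61.4% of all genes. All 5 called genes had separate groups, with every NICD2_Pax8 library above (2 genes) or below (3 genes) every WT library, as had 68.7% of all tested genes, 49.9% above and 18.8% below. After scaling, Sox7 also lay below, which made 6 of 8, beside 64.9% of all tested genes, 34.3% above and 30.5% below. Sox5 and Sox11 stayed under the filter. Sox9 passed it only through the NICD2_Pax8 libraries, so that its being called follows in part from the filter. In the authors' deposited table, in which 42.8% of genes had a q under 0.05, 3 Sox genes were higher (Sox4, Sox9 and Sox11), 4 were lower (Sox5, Sox6, Sox17 and Sox18) and 3 were not called.

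**Figure D1:**
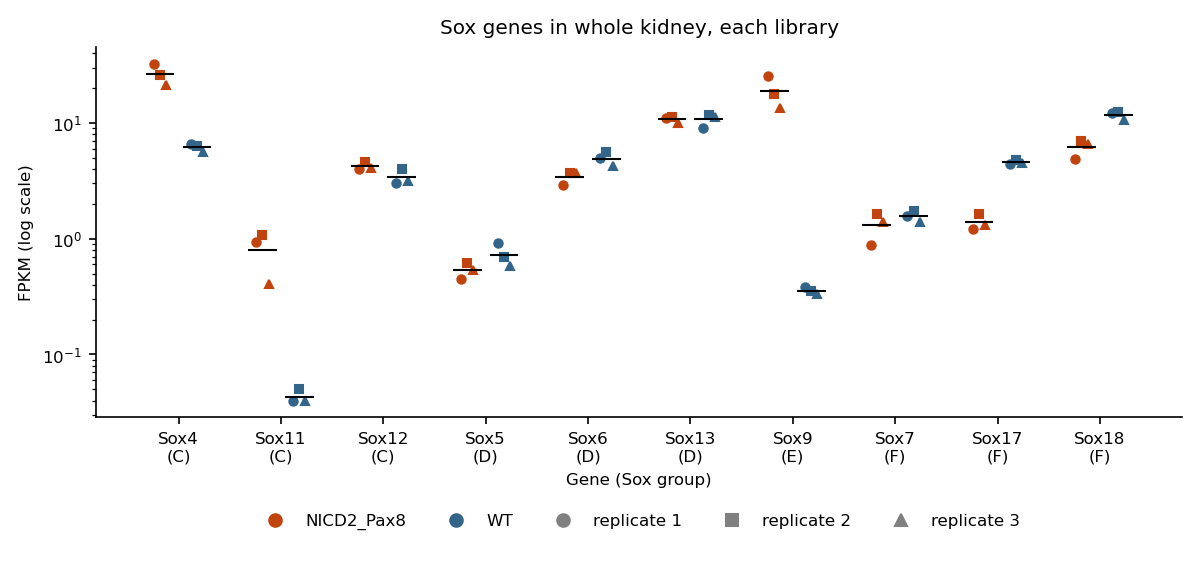
FPKM on a log axis of the 10 Sox genes, grouped by Sox group, with NICD2_Pax8 libraries in red left of WT libraries in blue; marker shape is the replicate number and the black line is the mean of 3 libraries. Sox4, Sox9 and Sox11 lie higher in every NICD2_Pax8 library than in any WT library, and Sox6, Sox17 and Sox18 lie lower.

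The order of the genes by level was different in the 2 groups. FPKM is corrected for length, so levels can be set side by side between genes, as far as the length used fits the transcripts expressed. Which length was used is not given. Sox6 has 69 transcripts, Sox5 has 28 and Sox17 has 10, against 1 each for Sox4 and Sox9, so the order between genes is approximate. In NICD2_Pax8 kidneys Sox4 led with a mean of 26.5 FPKM, followed by Sox9 with 18.9, Sox13 with 10.7, Sox18 with 6.17, Sox12 with 4.23, Sox6 with 3.42, Sox17 with 1.39, Sox7 with 1.31, Sox11 with 0.807 and Sox5 with 0.537 FPKM. The ranges of Sox4 and Sox9 overlapped, as did those of neighbours from Sox17 down, while each neighbouring pair from Sox9 to Sox17 was separate. In WT kidneys Sox18 led with 11.7 FPKM, followed by Sox13 with 10.7, Sox4 with 6.16, Sox6 with 4.91, Sox17 with 4.57, Sox12 with 3.39, Sox7 with 1.57, Sox5 with 0.73, Sox9 with 0.353 and Sox11 with 0.0433 FPKM. Here the ranges of Sox18 and Sox13 overlapped, and so did those of Sox6 and Sox17.

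As a share of the summed FPKM of the 10 genes, a quantity that scaling between libraries does not touch, Sox9 took 30.3%, 23.8% and 21.3% in NICD2_Pax8, against 0.882%, 0.735% and 0.791% in WT. Sox4 took 38.4%, 34.3% and 34.2% in NICD2_Pax8, against 15.4%, 13.2% and 13.4% in WT. Sox18 took 5.82%, 9.32% and 10.5% in NICD2_Pax8, against 28.1%, 26% and 25.4% in WT. The leading pair was thus Sox4 and Sox9 in each NICD2_Pax8 library and Sox18 and Sox13 in each WT library. The sum itself was 62.7 to 84.4 FPKM in NICD2_Pax8 and 41.7 to 47.6 FPKM in WT.

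**Figure D2:**
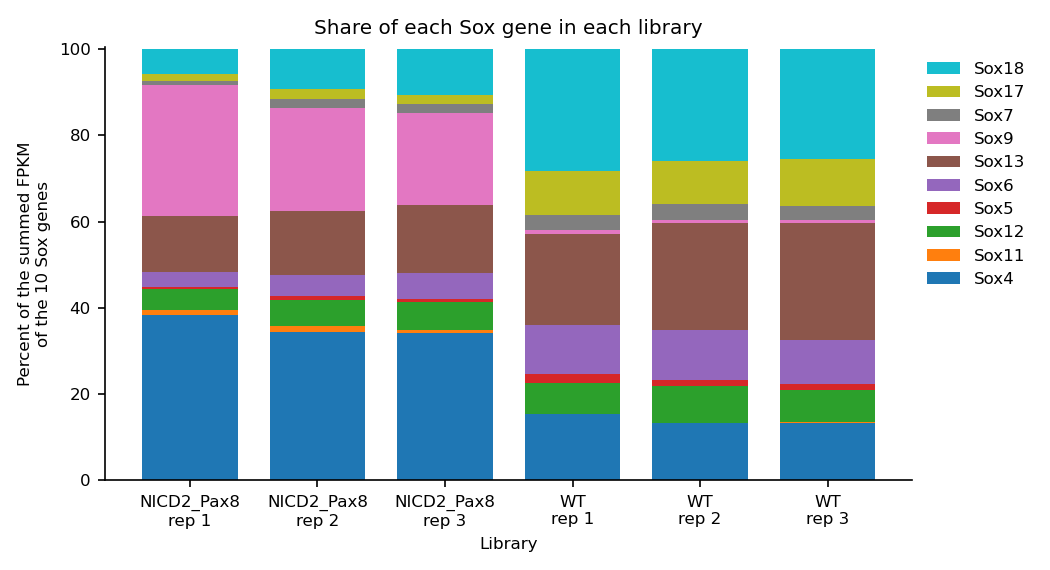
Stacked bars of the percent each Sox gene takes of the summed FPKM of the 10 genes, 1 bar per library, NICD2_Pax8 left and WT right. Sox4 and Sox9 fill most of the NICD2_Pax8 bars, and Sox18 takes 25.4% to 28.1% of the WT bars against 5.82% to 10.5% of the NICD2_Pax8 bars.

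Sox9, the group E member, was higher in NICD2_Pax8 kidneys. It stood at 25.56, 17.91 and 13.36 FPKM in NICD2_Pax8, against 0.38, 0.35 and 0.33 FPKM in WT. The groups were far apart, and the NICD2_Pax8 libraries differed more among themselves (18.9 ± 6.17 FPKM) than the WT libraries did (0.353 ± 0.0252 FPKM; SD, n = 3 each), with replicate 1 highest. On chromosome 11 (112782210 to 112787757, plus strand), its log2 fold change was 3.84 (SE 0.22, adjusted p = 5.45e-05), and 69 of the 13500 tested genes had a larger one. The pseudocount of 1 FPKM holds this value down because the WT level is low: with a pseudocount of 0.1 it was 5.34, close to the 5.30 of the authors' deposited table. From the estimated depth and the longest transcript, the values rested on about 1685, 1262 and 975 fragments in NICD2_Pax8 and 23, 22 and 21 fragments in WT.

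Genes known to rise in tubules beside Sox9 after injury were read from a list of 15. All 15 passed the filter and were higher, beside 45.1% of all tested genes, with a median log2 fold change of 2.71 against 0.32 for all tested genes. Of these, Havcr1 passed only through NICD2_Pax8 libraries, which fixed its direction. Cdh6, a cadherin of immature and regenerating tubule, stood at 36.70, 30.27 and 29.28 FPKM in NICD2_Pax8, against 1.20, 1.23 and 0.98 FPKM in WT (log2 fold change 3.95, SE 0.13, adjusted p = 1.34e-05). Spp1, osteopontin, reached 4.25 on the log2 scale (SE 0.24). After scaling 14 of the 15 were higher, beside 28.7% of all tested genes. Without WT replicate 1 the count was again 14, beside 6661 of all 13500 tested genes. All 8 genes of a list of Notch targets were also higher, with a median log2 fold change of 2.66, among them Nrarp and Heyl; Hes5 and Hey2 passed the filter only through NICD2_Pax8 libraries. Both lists were chosen with earlier results of these data known and are no independent evidence of direction.

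The cartilage genes that Sox9 switches on together with Sox5 and Sox6 were mostly under the filter. Of 16 with values only 2 were tested. Fgfr3, a growth factor receptor, stood at 10.41, 13.92 and 13.82 FPKM in NICD2_Pax8, against 6.16, 9.87 and 9.09 FPKM in WT, a log2 fold change of 0.56 (adjusted p = 0.0408) whose call was lost after scaling and without WT replicate 1 or 3 or NICD2_Pax8 replicate 2 or 3. Col27a1, a fibrillar collagen and the most abundant of the list, stood at 28.3 ± 5.39 FPKM in NICD2_Pax8 and 26.2 ± 4.06 FPKM in WT (SD, n = 3 each; adjusted p = 0.606). Col2a1, the main cartilage collagen and the best known target of Sox9, reached at most 0.04 FPKM in any NICD2_Pax8 library and 0.03 FPKM in any WT library.

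Sox9 also marks ureteric bud tips and lies beside collecting duct genes in development. Of 9 tested genes of that list 5 were higher and 3 lower, beside 45.1% and 16.2% of all tested genes, and after scaling 4 were higher and 4 lower, beside 28.7% and 25.7%. The share called higher is thus near that of all genes, and 1 of the 5, Wnt9b, passed the filter only through NICD2_Pax8 libraries. Wnt7b, a Wnt ligand of the collecting duct, reached 4.10 on the log2 scale (SE 0.36, adjusted p = 1.83e-04) and the homeobox gene Hoxb7 reached 1.43 (SE 0.12, adjusted p = 1.49e-04), while Aqp2 and Aqp3, the water channels, and Calb1, a calcium buffer, were lower. The keratin Krt7, with the highest mean of the list over the 6 libraries, stood at 107 ± 22 FPKM in NICD2_Pax8 and 72.6 ± 13.7 FPKM in WT (SD, n = 3 each; adjusted p = 0.0455), a call that was lost after scaling.

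Group C showed 3 different outcomes. Sox4 rose: it stood at 32.37, 25.74 and 21.45 FPKM in NICD2_Pax8, against 6.64, 6.26 and 5.59 FPKM in WT (chromosome 13, 28948919 to 28953699, minus strand). The groups did not overlap, and the log2 fold change was 1.93 (SE 0.16, adjusted p = 1.53e-04), or 1.6 after scaling. Sox4 and Sox9 were both highest in NICD2_Pax8 replicate 1 and lowest in replicate 3.

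Sox11 stood at 0.94, 1.07 and 0.41 FPKM in NICD2_Pax8, against 0.04, 0.05 and 0.04 FPKM in WT, a ratio of mean FPKM of 18.6 (chromosome 12, 27334268 to 27342718, minus strand). All NICD2_Pax8 libraries lay above all WT libraries, and replicate 3 was the low one. With 1 library at 1 FPKM or more it failed the filter. In the fit of all 19503 genes without a filter, which called 44.8% of them, its log2 fold change was 0.77 (SE 0.15, adjusted p = 0.00717), and the authors' deposited table gave 3.64 with q = 1.71e-09. The WT values amount to about 5, 6 and 5 fragments, and the NICD2_Pax8 values to about 126, 154 and 61 fragments, so the size of the ratio is imprecise.

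Sox12 did not pass the test. It stood at 4.03, 4.62 and 4.04 FPKM in NICD2_Pax8, against 3.01, 4.03 and 3.13 FPKM in WT (chromosome 2, 152393611 to 152398046, minus strand), so that the groups met at 4.03 FPKM. The log2 fold change was 0.26 with a 95% interval of -0.06 to 0.58 (adjusted p = 0.135). After scaling it was -0.02 with an interval of -0.36 to 0.32.

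The members of group C share stretches of their HMG box coding sequence, which bears on how reads are assigned between them. The longest identical run among the 45 pairs of Sox transcripts, taken from the longest coding transcript of each gene in GENCODE M21, was 48 bases between Sox4 and Sox11 and lay in the coding part of both; the next within the group was 33 bases between Sox4 and Sox12. The read length is not given in the sources used here, and 0 pairs shared 50 bases or more. The 2 runs are printed 5′ to 3′ to show how alike these genes are there.
Sox4 and Sox11: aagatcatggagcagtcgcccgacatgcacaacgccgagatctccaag
Sox12 and Sox4: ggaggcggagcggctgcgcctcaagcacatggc

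Promoter windows were found in the RefSeq table (GRCm38.p6) for 6 of the 10 genes: Sox4, Sox5, Sox6, Sox11, Sox12 and Sox13. The 250 bases before the start of the group C genes are printed, since Sox4 and Sox11 were higher in NICD2_Pax8 and Sox12 was not called. Their windows end where the gene begins in the deposited table. The downstream part of the Sox4 and Sox12 windows lies in a GENCODE transcript, while that of the Sox11 window does not. Those of Sox5, Sox6 and Sox13 stand before RefSeq starts that lie inside the gene as the table spans it, and are not printed. Sequences run 5′ to 3′ on the gene's own strand, here the minus strand in each case, and capitals mark TGGGAA on either strand, the core of the motif bound by RBPJ, the DNA-binding partner of the Notch intracellular domain.
Sox4, chr13:28953700-28953949: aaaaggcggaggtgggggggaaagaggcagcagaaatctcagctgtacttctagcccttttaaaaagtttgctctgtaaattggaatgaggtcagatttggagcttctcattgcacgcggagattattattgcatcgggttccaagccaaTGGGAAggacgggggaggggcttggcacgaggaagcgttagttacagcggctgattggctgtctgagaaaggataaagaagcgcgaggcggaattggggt
Sox11, chr12:27342719-27342968: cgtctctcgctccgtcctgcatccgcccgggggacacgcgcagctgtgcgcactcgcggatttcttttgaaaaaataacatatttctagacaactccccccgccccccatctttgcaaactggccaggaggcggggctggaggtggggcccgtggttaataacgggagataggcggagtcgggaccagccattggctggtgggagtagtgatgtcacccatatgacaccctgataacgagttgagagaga
Sox12, chr2:152398047-152398296: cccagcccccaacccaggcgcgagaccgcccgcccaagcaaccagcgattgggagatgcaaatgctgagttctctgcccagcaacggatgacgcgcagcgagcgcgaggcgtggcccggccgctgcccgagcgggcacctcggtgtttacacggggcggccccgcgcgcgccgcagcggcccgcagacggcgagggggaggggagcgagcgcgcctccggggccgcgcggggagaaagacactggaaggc

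TGGGAA occurred once in the window of Sox4 and in neither that of Sox11 nor that of Sox12. It also occurred once in the window of Sox13, which covers the first transcribed bases of the gene as tabled, and in no window of Sox5 or Sox6. Of all 32851 promoter windows of this length 21.6% hold it. The longer GTGGGAA, which contains it, occurred in none of the 11 windows of these genes and in 5.42% of all windows. ACAAAG and ACAATG, letters bound by Sox proteins themselves, are held by 16.5% and 10.7% of all windows, searched on both strands. ACAAAG was found in 5 of the 6 windows of Sox6, ACAATG in 2 of them and in the window of Sox5, and neither in the windows of Sox4, Sox11, Sox12 and Sox13. The longer AACAATG, which contains ACAATG, is held by 3.29% of all windows and occurred once, in 1 of the 6 windows of Sox6. GC content was 50.8% in the Sox4 window, 58.0% in that of Sox11 and 74.4% in that of Sox12, against a median of 52.4% over all windows.

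Genes reported elsewhere as targets of group C factors were few. Of 5 listed, 3 were tested and all 3 were higher, beside 45.1% of all tested genes. Under quantile normalization 2 were higher, beside 3866 of all 13500 tested genes. The weakest was Dbn1, with a log2 fold change of 0.66, or 0.34 after scaling. Tubb3 and Dcx were under the filter, and the groups overlapped in both. For Tubb3 the overlap came from WT replicate 1: it stood at 0.79, 0.70 and 1.00 FPKM in NICD2_Pax8, against 3.58, 0.00 and 0.04 FPKM in WT. Tead2, a partner of the YAP coactivator, stood at 17.7 ± 3.04 FPKM in NICD2_Pax8 and 2.20 ± 0.52 FPKM in WT (log2 fold change 2.55, SE 0.18, adjusted p = 8.81e-05), and Ezh2, a histone methyltransferase, at 20.5 ± 3.13 FPKM in NICD2_Pax8 and 3.30 ± 1.19 FPKM in WT (SD, n = 3 each), a log2 difference of 2.35 with SE 0.22. Ezh2 is also expressed by dividing cells in general, and 8 of 8 cell division genes were higher, beside 45.1% of all tested genes. Bub1 passed the filter only through NICD2_Pax8 libraries. The median log2 fold change of the 8 was 3.27, against 0.32 for all tested genes. Pcna, a clamp of DNA replication, stood at 200 ± 26.5 FPKM in NICD2_Pax8 and 39.7 ± 1.79 FPKM in WT (SD, n = 3 each). Aurkb, a mitotic kinase, had a log2 fold change of 3.66. Leukocytes also express Sox4. Of 9 leukocyte markers 6 were tested and 4 were higher, beside 45.1% of all tested genes, and likewise 4 after scaling, beside 28.7%. The sum of the 9 was 416 to 493 FPKM in NICD2_Pax8 and 96.8 to 266 FPKM in WT. Lyz2 and C1qb, genes of macrophages, and the integrin Itgam were among those higher. Csf1r, also a macrophage gene, was not called, at 17.3 FPKM in NICD2_Pax8 and 16.5 FPKM in WT (adjusted p = 0.751, limma). The general marker Ptprc was not called, at 4.53 FPKM in NICD2_Pax8 and 3.83 FPKM in WT, and the lymphocyte markers Cd3e and Cd79a averaged under 1 FPKM in both groups. Their part in the Sox4 level was not tested.

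**Figure D3:**
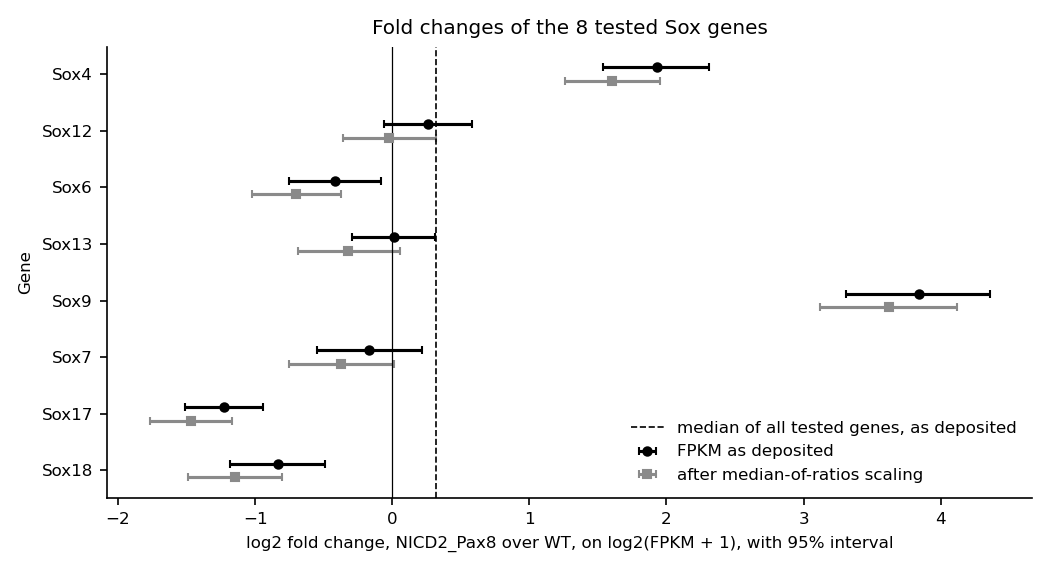
Log2 fold changes of the 8 tested Sox genes on log2(FPKM + 1), NICD2_Pax8 over WT, with 95% intervals from limma, as deposited (black) and after median-of-ratios scaling (grey); the dashed line is the median of all tested genes, 0.32. Sox4 and Sox9 lie right of it, Sox6, Sox17 and Sox18 lie left of 0 with both scalings, and the intervals of Sox7, Sox12 and Sox13 include 0 as deposited.

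Group D had 1 called member, Sox6, which was lower. Sox6, which directs red cell maturation and cartilage and, in mice, the renin cells of the kidney, stood at 2.90, 3.71 and 3.66 FPKM in NICD2_Pax8, against 4.95, 5.56 and 4.21 FPKM in WT (chromosome 7, 115470872 to 116040776, minus strand). The groups did not overlap. The log2 fold change was -0.42 (SE 0.14, adjusted p = 0.0381), close to the threshold, and the call was lost without any 1 of the 3 NICD2_Pax8 libraries and without WT replicate 1 or 2 (adjusted p 0.0621 to 0.129), and without a filter. After scaling it was -0.70 (adjusted p = 0.0053). The row covers 69 transcripts, the longest of 28943 bases, and which of them were expressed is not given.

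Markers of the cells in which Sox6 is known were read beside it. Ren1, renin, was lower, at 18.44, 28.93 and 33.22 FPKM in NICD2_Pax8, against 94.00, 100.09 and 134.82 FPKM in WT (log2 fold change -2.01, SE 0.24, adjusted p = 5.44e-04). The other renin cell gene listed, Akr1b7, is also an adrenal gene. It stood at 0.74 to 1.18 FPKM in NICD2_Pax8 and at 996.59, 1.70 and 1.67 FPKM in WT, and was not called. When WT replicate 1 was left out both Ren1 and Akr1b7 were lower, beside 2276 of all 13500 tested genes. Of 6 red cell genes 2 passed the filter, Alas2 only through WT libraries, and both were lower, beside 16.2% of all tested genes. They were Hba-a1, an alpha globin (log2 fold change -3.40, adjusted p = 0.00179), and Alas2, which starts heme synthesis in red cells. Under the filter, Epb42, of the red cell membrane skeleton, stood at 0.43, 0.47 and 0.86 FPKM in NICD2_Pax8, against 0.16, 0.26 and 0.23 FPKM in WT, and was higher in the fit without a filter (adjusted p = 0.0373), while Klf1, a red cell transcription factor, overlapped. The beta globin gene Hbb-b1 was at or near 0 in both groups, with at most 0.05 FPKM in WT. The sum of the 6, nearly all of it Hba-a1, was 25.2 to 52.6 FPKM in NICD2_Pax8 and 181 to 808 FPKM in WT, and their part in the Sox6 level was not tested.

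Sox13, a partner of T cell factor proteins, stood at 11.09, 11.21 and 9.92 FPKM in NICD2_Pax8, against 9.06, 11.79 and 11.32 FPKM in WT (chromosome 1, 133382300 to 133424459, minus strand). The groups overlapped, with WT replicate 1 lowest of all. The log2 fold change was 0.01 with a 95% interval of -0.29 to 0.31 (adjusted p = 0.96). Relative to the upward median of 0.32 this is a lower position: scaled, it was -0.32 with an interval of -0.69 to 0.06, and -0.48 (adjusted p = 0.00691) when WT replicate 1 was also left out. Among 9 tested target genes of the beta-catenin pathway, through which T cell factors act, 4 were higher and 1 lower, shares near the 45.1% and 16.2% of all tested genes. After scaling 2 were higher and 1 lower, beside 28.7% and 25.7%. Of the 4 higher as deposited, Rnf43 passed the filter only through NICD2_Pax8 libraries, which fixed its direction. The tested targets included Ccnd1, a cyclin, at a log2 fold change of 3.09 and Notum, a secreted Wnt inhibitor, at -2.10 (SE 0.16, adjusted p = 1.07e-04). Without WT replicate 1, 7 of the 9 were higher, beside 6661 of all 13500 tested genes. Without WT replicate 2 or 3 or NICD2_Pax8 replicate 3, 2 were higher, beside 5156, 5200 and 5166 genes.

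Sox5, the closest relative of Sox6, stood at 0.45, 0.62 and 0.54 FPKM in NICD2_Pax8, against 0.92, 0.69 and 0.58 FPKM in WT (chromosome 6, 143828425 to 144782287, minus strand). The groups overlapped, and no library reached 1 FPKM. Without a filter the log2 fold change was -0.17 (SE 0.10, adjusted p = 0.215), while the authors' deposited table called it lower with -0.79 and q = 0.033. Within each library Sox5 was a similar part of Sox6, at 0.155, 0.167 and 0.148 in NICD2_Pax8, against 0.186, 0.124 and 0.138 in WT.

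Group F was lower for 2 of its 3 members. Sox17, which shapes arterial endothelium, stood at 1.22, 1.62 and 1.32 FPKM in NICD2_Pax8, against 4.41, 4.76 and 4.54 FPKM in WT (chromosome 1, 4490928 to 4497426, minus strand). The groups were widely apart and even within each group. The log2 fold change was -1.23 (SE 0.12, adjusted p = 2.65e-04), with -1.47 after scaling, and 6.02% of tested genes had a lower one.

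Sox18, which starts the lymphatic programme by switching on Prox1, stood at 4.91, 7.0 and 6.59 FPKM in NICD2_Pax8, against 12.11, 12.37 and 10.59 FPKM in WT (chromosome 2, 181669837 to 181671640, minus strand). All NICD2_Pax8 libraries lay below all WT libraries, and the log2 fold change was -0.83 (SE 0.15, adjusted p = 0.00265), with -1.15 after scaling. Sox7, known from the first blood and vessel cells of the embryo, stood at 0.89, 1.64 and 1.39 FPKM in NICD2_Pax8, against 1.57, 1.73 and 1.40 FPKM in WT (chromosome 14, 63943706 to 63950732, plus strand). Its groups overlapped, and the log2 fold change was -0.17 with a 95% interval of -0.55 to 0.22 (adjusted p = 0.404). In each of the 3 genes the lowest NICD2_Pax8 library was replicate 1.

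Endothelial genes were lower as well. Of 17 with values 16 were tested, 12 were lower and 0 higher, beside 16.2% and 45.1% of all tested genes. Their median log2 fold change was -0.77, against 0.32 for all tested genes. Tek, the angiopoietin receptor, stood at 2.21, 3.04 and 3.0 FPKM in NICD2_Pax8, against 9.46, 10.51 and 8.86 FPKM in WT (log2 fold change -1.51, SE 0.14, adjusted p = 2.00e-04). Emcn, a sialomucin of capillaries, and Plvap, of fenestrated endothelium, had log2 fold changes of -1.29 and -0.92, while Cdh5, Fli1, Egfl7 and Esam were not called. After scaling 14 of the 16 were lower, beside 25.7% of all tested genes. The summed FPKM of the 17 genes was 173 to 221 in NICD2_Pax8 and 343 to 386 in WT, and no gene of the list was at 0 in every library. FPKM is relative to the library total. In whole tissue, fewer endothelial cells, less RNA per cell and more RNA from other cells cannot be told apart.

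Set against that sum within each library, which removes the scaling between libraries, the 3 genes of group F gave 3 different outcomes, described here without a test. Per 1000 FPKM of endothelial genes, Sox17 stood at 7.05, 7.80 and 5.97 FPKM in NICD2_Pax8, against 11.4, 13.1 and 13.2 FPKM in WT. It was lower relative to this sum, without overlap. Sox18 stood at 28.4, 33.7 and 29.8 FPKM per 1000 in NICD2_Pax8, against 31.4, 34.0 and 30.9 FPKM in WT, and overlapped. Sox7 stood at 5.14, 7.90 and 6.29 FPKM per 1000 in NICD2_Pax8, against 4.07, 4.76 and 4.08 FPKM in WT, and did not overlap, with the NICD2_Pax8 libraries higher. Sox7 rested on only about 46, 91 and 80 fragments in NICD2_Pax8 and 76, 84 and 70 fragments in WT, so its narrow separation is imprecise. The same 3 outcomes were found against Pecam1 and Cdh5 alone. The sum hides differences among the endothelial genes. Their log2 fold changes ran from -1.51 for Tek to 0.01 for Esam. Those of Sox17 (-1.23) and Sox7 (-0.17) lay within that range, so neither outcome is particular to the Sox gene.

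**Figure D4:**
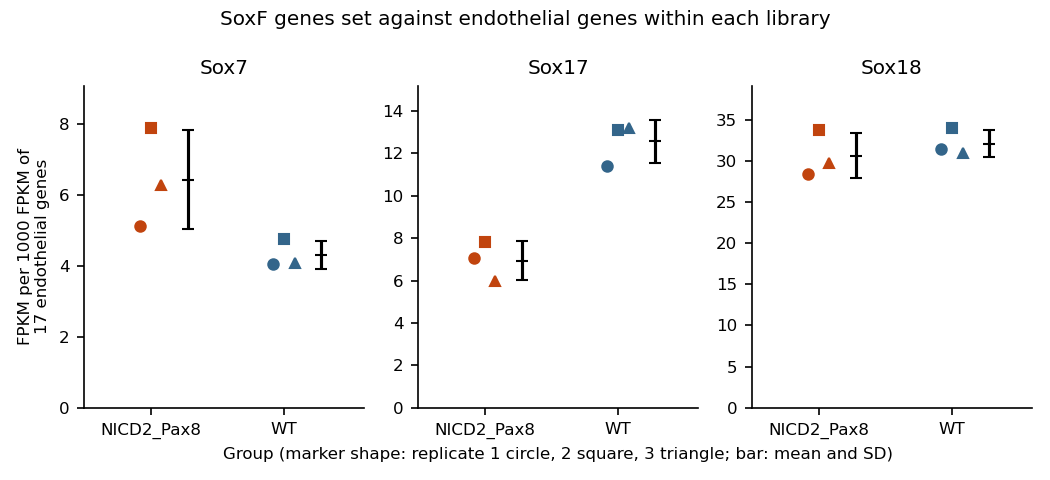
FPKM of Sox7, Sox17 and Sox18 per 1000 FPKM of 17 endothelial genes in each library, NICD2_Pax8 left and WT right in each panel, with mean and SD of 3 libraries. Sox7 lies higher (6.44 ± 1.38 in NICD2_Pax8, 4.30 ± 0.395 in WT), Sox17 lies lower (6.94 ± 0.92 in NICD2_Pax8, 12.6 ± 1.01 in WT), and Sox18 overlaps (30.6 ± 2.76 in NICD2_Pax8, 32.1 ± 1.70 in WT).

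Ratios between Sox genes within each library need no scaling either. Sox17 relative to Sox18 was 0.248, 0.231 and 0.2 in NICD2_Pax8, against 0.364, 0.385 and 0.429 in WT. Sox9 relative to Sox4 was 0.79, 0.696 and 0.623 in NICD2_Pax8, against 0.0572, 0.0559 and 0.059 in WT, with no overlap. Sox12 relative to Sox4 was 0.164 ± 0.0346 in NICD2_Pax8 and 0.552 ± 0.0955 in WT (SD, n = 3 each). Of 8 such ratios, chosen after the FPKM values were seen, 7 did not overlap between groups. An exact two-sided permutation test with 3 libraries a group cannot go below p = 0.1, which these 7 reached (0.114 adjusted over the 8), so none passes 0.05.

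Arterial and lymphatic genes, the programmes in which group F is best known, were read separately. Of 7 arterial genes 4 were higher and 0 lower, beside 45.1% and 16.2% of all tested genes. After scaling 3 were higher and 0 lower, beside 28.7% and 25.7%. The share higher as deposited is near that of all tested genes, and Hey2 passed the filter only through NICD2_Pax8 libraries. Unc5b, a netrin receptor, stood at 16.65, 14.30 and 12.62 FPKM in NICD2_Pax8, against 1.82, 1.75 and 1.03 FPKM in WT (log2 fold change 2.62, SE 0.17, adjusted p = 7.72e-05), and Efnb2, an ephrin ligand, at 32.8 ± 9.48 FPKM in NICD2_Pax8 and 4.63 ± 0.813 FPKM in WT (SD, n = 3 each), 2.56 on the log2 scale. Hey2, a repressor induced by Notch and also on the list of Notch targets, had a log2 fold change of 2.25. Gja4, an arterial connexin, was also higher, though not after scaling, but Nrp1, Gja5 and the Notch ligand Dll4, at 2.32 ± 0.415 FPKM in NICD2_Pax8 and 3.17 ± 1.34 FPKM in WT (SD, n = 3 each), were not called, though 1 gene was lower without WT replicate 2. These genes are not confined to endothelium, and which cells carried them was not measured. Of 6 lymphatic genes 3 were tested and 1 was lower, beside 16.2% of all tested genes. The lower gene was the chemokine Ccl21a (1.26 ± 0.573 FPKM in NICD2_Pax8 and 7.38 ± 0.434 FPKM in WT, SD, n = 3 each, adjusted p = 2.73e-04). Flt4, the lymphatic growth factor receptor, and Lyve1 were not called, though Flt4 was lower after scaling and 1 gene was higher without WT replicate 1. Prox1 stood at 0.25, 0.25 and 0.28 FPKM in NICD2_Pax8, against 1.85, 1.27 and 0.63 FPKM in WT, and was under the filter. Without a filter Prox1 was lower by limma, at -0.80 on the log2 scale (SE 0.20, adjusted p = 0.0202). In that fit 3 of the 6 lymphatic genes were lower, beside 12.2% of all genes.

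**Figure D5:**
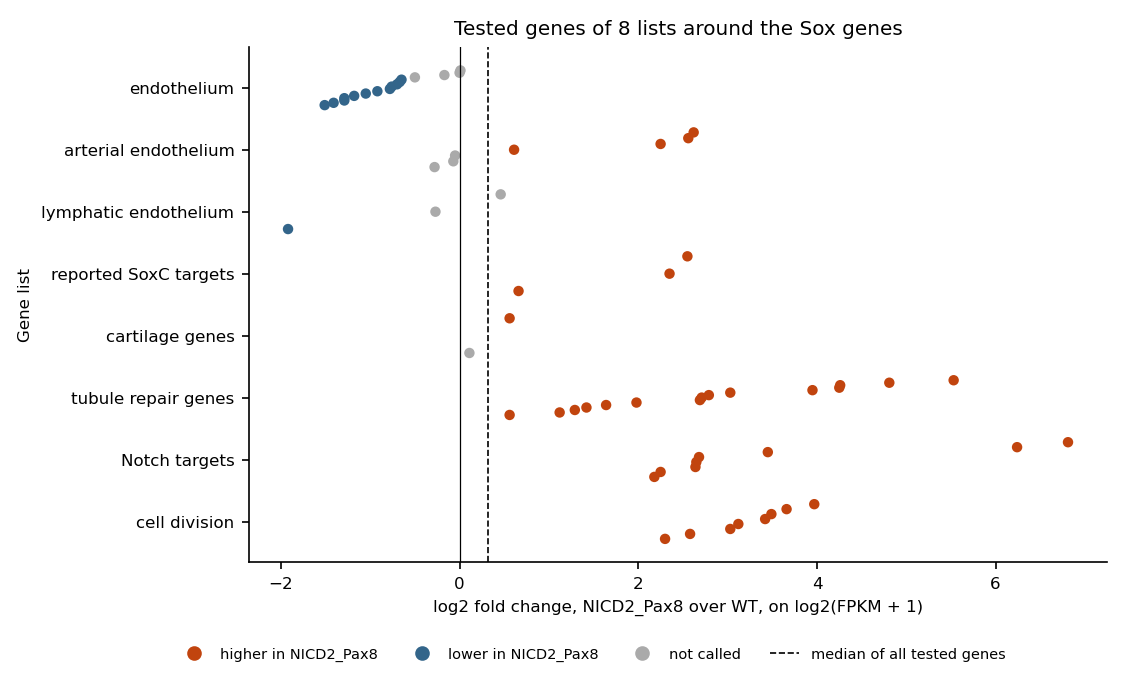
Log2 fold changes on log2(FPKM + 1), NICD2_Pax8 over WT, of the tested genes of 8 lists, 1 point per gene, coloured by limma call; the dashed line is the median of all tested genes, 0.32. Endothelial genes lie left of 0 or close to it, with 12 of 16 lower, beside 16.2% of all tested genes. All tested genes of the tubule repair, Notch target and cell division lists were higher, beside 45.1% of all tested genes.

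The remaining family members were scarce. None of 9 other Sox genes passed the filter, and only Sox8, the relative of Sox9 in group E, reached 1 FPKM in any library. It stood at 0.89, 1.44 and 0.88 FPKM in NICD2_Pax8, against 0.50, 0.21 and 0.44 FPKM in WT. The NICD2_Pax8 libraries all lay higher, and without a filter its log2 fold change was 0.58 (SE 0.14, adjusted p = 0.0187), while the authors' deposited table gave q = 0.0718. Relative to Sox9 it was 0.0348, 0.0804 and 0.0659 in NICD2_Pax8, against 1.32, 0.6 and 1.33 in WT: Sox8 and Sox9 stood at like levels in WT kidneys and far apart in NICD2_Pax8 kidneys. The highest value of the other 8 was 0.64 FPKM, of Sox10 in WT replicate 1, the library with adrenal transcripts.

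Tissue markers give the setting of these values. Of 8 markers that define nephron segments 7 were lower and 0 higher, beside 16.2% and 45.1% of all tested genes. After scaling 7 were again lower, beside 25.7%. Slc12a3 (log2 fold change -2.80), Lrp2 (-2.54) and Slc34a1 (-4.26) were among the 7. Umod was not called, at 1350 ± 339 FPKM in NICD2_Pax8 and 1120 ± 425 FPKM in WT (SD, n = 3 each). The sum of the 8 was 1200 to 2050 FPKM in NICD2_Pax8 and 3290 to 5000 FPKM in WT. Of 8 pericyte and smooth muscle genes 5 were higher and 0 lower, beside 45.1% and 16.2% of all tested genes. After scaling 4 were higher, beside 28.7%. Under quantile normalization 3 were higher, beside 3866 of all 13500 tested genes. Acta2, Tagln and Cspg4 had log2 fold changes of 2.22, 1.85 and 1.21, while Pdgfrb, Des and Myh11, at 0.22, 0.13 and 0.39, were not called. Of the adrenal list 1 gene, Star, was tested and not called, and of the fat list 6 genes were tested and 0 called by limma. At an unadjusted p under 0.05 by limma the count was 1 gene, Fabp4. Without WT replicate 3, 5 of the 6 were lower, beside 1988 of all 13500 tested genes.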

How the data were processed

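RNA from whole kidney was frozen, extracted with Trizol and sequenced after Illumina TruSeq preparation, per the labels' protocols. FPKM were deposited by the authors for 6 libraries, per the file headers, with the authors' log2 fold changes and q-values from DESeq2, per the file headers. Bowtie 0.12.2 and the mouse build mm8 are named in the submitters' processing notes. How fragments were counted is not given in these sources. Start and end of 88.2% of 21998 matched genes, and of all 10 Sox genes, equal those of GRCm38, so coordinates are given on GRCm38.

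The tests planned for counts could not be used because the table holds FPKM. log2(FPKM + 1) of genes with at least 1 FPKM in at least 3 of the 6 libraries was fitted with limma 3.58.1 (R 4.3.3) by genotype alone, with the mean trend of the variance and Benjamini-Hochberg adjustment over 13500 genes; adjusted p-values in the report are from limma. Figures and sums used Python 3.11.15. The model was checked on simulated normal values with few changed genes and no overall shift. That check does not cover data in which most genes are called, as here. Alternatives were a pseudocount of 0.1 or 5 FPKM, no filter, median-of-ratios scaling, quantile normalization, a replicate block, scaling without WT replicate 1, and leaving out each library. Depth is not in the table. It was estimated at 14.8 to 17.6 M fragments from the steps between low values of genes with 1 transcript, an estimate that between 62.3% and 68.4% of low values met within 0.15 of a whole fragment, so fragment numbers are approximate.

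The Sox genes and 18 other gene lists were chosen with earlier results of these data known. Named were all 10 Sox genes, any other Sox gene with 1 FPKM in a library, and from each list the 2 tested genes with the smallest p and the one with the highest mean; further genes named to complete a count were chosen after their values were seen. No protein sequences were used.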

Additional observations from a re-analysis of the deposited data

How the results depend on the processing

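Sox4, Sox9, Sox17 and Sox18 kept their direction and stayed past the threshold under every alternative run. Leaving out 1 library at a time gave log2 fold changes of 1.78 to 2.06 for Sox4, 3.61 to 4.05 for Sox9, -1.29 to -1.18 for Sox17, -0.92 to -0.70 for Sox18 and -0.50 to -0.33 for Sox6, with 4 to 5 Sox genes called. Sox6 lost its call without a filter (adjusted p = 0.0696, limma). Sox7 was called lower only under quantile normalization (-0.49, adjusted p = 0.0321, limma). Sox12 changed sign to -0.02 with median-of-ratios scaling and to -0.13 with quantile normalization and with scaling without WT replicate 1. Sox13 changed sign to -0.32, -0.38 and -0.48 under the same 3 settings, and to -0.01, -0.02 and -0.10 without NICD2_Pax8 replicate 1, NICD2_Pax8 replicate 2 and WT replicate 1. Leaving out 1 library at a time put Sox13 between -0.10 and 0.07. The cause was not tested. Over all genes, the 6095 higher became 3873 with scaling and 3866 with quantile normalization, and the 2190 lower became 3473 with scaling, 3558 with quantile normalization and 3827 with scaling without WT replicate 1. Without 1 library, 6982 to 8937 genes were called, 5156 to 6661 higher and 1826 to 2276 lower. Sox18 against endothelial genes moved from a log2 difference of -0.07 to -0.22 when Pecam1 and Cdh5 alone were used.

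The replicate numbers did not pair the samples: deviations of same-numbered libraries correlated at 0.0951, -0.0498 and 0.0056. With the replicate block 7982 genes were called against 8285 without it, and of the Sox genes only Sox6 lost its call (adjusted p = 0.0596, limma). A count model was not run, since the table holds no counts. Low FPKM limit Sox5, Sox7, Sox11 and Sox8, and 3 libraries a group limit every ratio.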
